A study of Mus musculus with 2 samples.

Results

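The mir-130/mir-301 family was described in small RNA of the embryonic mouse midbrain at day 10.5 (E10.5). Its 4 members, Mir130a, Mir130b, Mir301 and Mir301b, are 4 of 1973 microRNA genes that were counted, and all 4 were present in both libraries. The members were chosen by gene family, with their levels in these libraries already known, so the levels below are a description and carry no test. The series holds 1 group, midbrain tissue of strain B6NCrl embryos of both sexes, with no genetic change and no treatment named in the labels. Replicate 2 is a pool of 51 embryos and replicate 1 a pool of 69 embryos, each sequenced as 1 library of RNA shorter than 30 nt. There is no other stage or tissue, and a difference between the replicates compares 2 libraries and not conditions. The libraries held 3682410 gene-assigned reads in replicate 2 and 3297835 in replicate 1. All values are bulk values, in which fewer cells of a type and less RNA per cell cannot be told apart. Whether the libraries captured different sequences equally was not tested, so levels, ranks and folds between genes are those of reads.

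A microRNA guides Argonaute proteins to messenger RNAs, mainly through its seed, the bases 2 to 8 from its 5′ end, and lowers the output of the messages that it pairs with. The mir-130/mir-301 family is defined by one seed shared by all members, so that they can bind overlapping sets of messages. It is conserved among vertebrates. In human endothelial cells miR-130a is known to lower the homeobox factors GAX and HOXA5, and in human preadipocytes the miR-130 members are known to lower PPARG.

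The mature sequences are shown to make the shared seed visible, with the seed in capitals (RefSeq, GRCm38.p6). The hairpin of Mir301b is shown whole, with the same 7 bases in capitals.
miR-130a-3p: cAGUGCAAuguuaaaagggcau
miR-130b-3p: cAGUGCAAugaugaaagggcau
miR-301a-3p, from Mir301: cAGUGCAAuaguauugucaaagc
Mir301b hairpin: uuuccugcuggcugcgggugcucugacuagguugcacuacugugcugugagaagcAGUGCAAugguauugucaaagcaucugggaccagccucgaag

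Over the 22 bases that start 1 base before the seed, the family fell into 2 closely related pairs. Counted from that first base, Mir130a and Mir130b differed at 2 positions, U11A and A13G (the base of Mir130a first), and matched at 20. Mir301 and Mir301b differed at 1 position, A10G (the base of Mir301 first), and matched at 21. Between the pairs 9 to 11 of the 22 bases differed, and every difference lay at position 10 or later, outside the seed. In the opposite arms, bases 2 to 8 were equal within the mir-301 pair and not within the mir-130 pair. These arms are shown because the counts are per gene and take in the reads of both arms; capitals mark bases 2 to 8.
miR-130a-5p: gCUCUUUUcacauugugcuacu
miR-130b-5p: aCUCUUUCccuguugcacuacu
miR-301a-5p, from Mir301: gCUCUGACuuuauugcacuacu
miR-301b-5p: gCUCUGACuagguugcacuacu

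The exact complement of the seed, UUGCACU, stood in the hairpins of Mir130b, Mir301 and Mir301b and not in that of Mir130a. The longest run of bases that a member's precursor shared with any other microRNA locus of GENCODE M21 was 17 bases, between Mir130a and Mir6389, and 16 bases for each of the other members. Mir301 and Mir301b shared their 16 bases with each other. No member shared a run of 20 bases with another locus. Reads that mapped to several places (29.5% of all reads in replicate 2 and 30.9% in replicate 1) are not in the gene counts, and how many of them came from the family was not analysed here.

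The 4 genes lie at 3 loci (mm10). Mir130a (ENSMUSG00000065484.1, chr2:84741115-84741178, minus strand) is intergenic, 990 bases from the nearest annotated gene, Gm19426, and 2459 bases from Ypel4. Mir301 (ENSMUSG00000065589.1, chr11:87113004-87113089, plus strand) lies in an intron of Ska2, on the same strand. Ska2 encodes a protein of the complex that links kinetochores to spindle microtubules. Mir130b (ENSMUSG00000065572.1, chr16:17124061-17124142, minus strand) and Mir301b (ENSMUSG00000076288.1, chr16:17124400-17124496, minus strand) are neighbours, 257 bases apart, in an intron of 2610318N02Rik on the same strand. Each of these 2 was the only other counted microRNA gene within 50 kb of its neighbour, and Mir130a and Mir301 had none.

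Together the members held 5.12% of the gene-assigned reads in replicate 2 (95% Wilson interval 5.10 to 5.15%) and 5.25% in replicate 1 (5.22 to 5.27%), or 5.18% ± 0.0869 (SD, n = 2). Over all reads of the libraries, those assigned to no gene included, the mean share was 2.11%. These intervals, and the counting intervals below, cover counting error only, since PCR copies cannot be told from separate molecules here. The summed reads were nearly level between the pools, with a log2 ratio of replicate 2 over replicate 1 of −0.03 after TMM scaling (ratio 0.980, 95% counting interval 0.973 to 0.986), and 0.0051, of the other sign, with DESeq2 size factors. Without Mir130a the family's log2 ratio was 0.041, also of the other sign, and its share 1.66%.

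Mir130a led the family. It had 126631 reads in replicate 2 and 118847 in replicate 1, which is 34388 CPM (reads per 1000000 gene-assigned reads) in replicate 2 and 36038 CPM in replicate 1, or 35213 ± 1167 CPM (SD, n = 2). It was the fourth most abundant of the counted genes in each library (rank 4 in both). Mir17 stood above it at 80747 CPM in replicate 2 and 79342 CPM in replicate 1, and Mir99a at 62944 CPM in replicate 2 and 99137 CPM in replicate 1, both without overlap with Mir130a. Of the genes below it, Mir20a was lower in each library at 32514 CPM in replicate 2 and 31384 CPM in replicate 1, so that the ranges did not overlap. The range of Mir100, 24857 CPM in replicate 2 and 34642 CPM in replicate 1, overlapped that of Mir130a, although Mir100 was lower within each library.

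Mir130b was the second member by level. Its 55266 reads in replicate 2 and 44398 in replicate 1 correspond to 15008 CPM (rank 14) in replicate 2 and 13463 CPM (rank 15) in replicate 1, or 14235 ± 1093 CPM (SD, n = 2). Mir130a exceeded it 2.29-fold in replicate 2 and 2.68-fold in replicate 1, a gap larger than the spread of either gene between the pools. Among its neighbours in rank, Mir322 (15400 ± 1480 CPM), Mir106b (13537 ± 465 CPM) and Mir106a (12639 ± 2427 CPM; SD, n = 2 each) overlapped it in range. Within each library Mir322 was above Mir130b and Mir106a below it, while Mir106b was below it in replicate 2 and above it in replicate 1. Mir30e, at 16369 CPM in replicate 2 and 22175 CPM in replicate 1, was above Mir130b without overlap.

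Mir301 and Mir301b were far lower. Mir301 had 5906 reads in replicate 2 and 8701 in replicate 1, which is 1604 CPM (rank 84) in replicate 2 and 2638 CPM (rank 66) in replicate 1, or 2121 ± 732 CPM (SD, n = 2). Its range took in all 4 of its neighbours in rank, Mir484, Mir351, Mir425 and Gm25252, so its place among them was not resolved. Mir301b had 831 reads or 226 CPM (rank 179) in replicate 2 and 1041 reads or 316 CPM (rank 162) in replicate 1, with a mean of 271 ± 63.6 CPM (SD, n = 2). Its range also took in those of Mir679, Mir155, Mir700 and Mir148b. The ranges of the 4 members did not overlap one another, and their order was the same in both libraries.

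**Figure D1:**
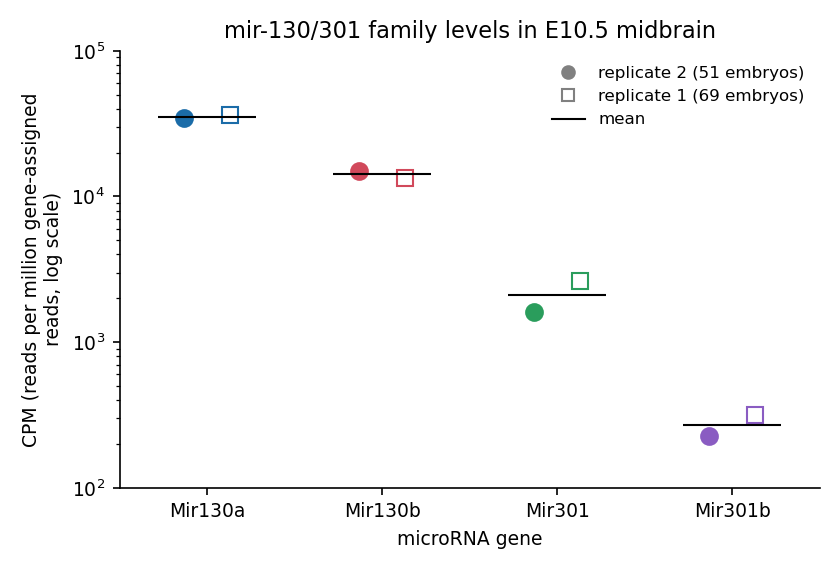
Level of each family member in CPM on a log axis, with a filled circle for replicate 2, an open square for replicate 1 and a line for their mean. The members keep 1 order in both libraries, and the 2 points lie closest for Mir130a and Mir130b and farther apart for Mir301 (1604 CPM in replicate 2 and 2638 in replicate 1) and Mir301b (226 in replicate 2 and 316 in replicate 1).

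The make-up of the family was dominated by its mir-130 pair. Mir130a supplied 67.1% of the family's reads in replicate 2 (95% Wilson interval 66.9 to 67.3%) and 68.7% in replicate 1 (68.5 to 68.9%). Mir130b supplied 29.3% (29.1 to 29.5%) in replicate 2 and 25.7% (25.5 to 25.9%) in replicate 1. The rest came from the mir-301 pair. Mir301 held 3.13% (3.05 to 3.21%) in replicate 2 and 5.03% (4.93 to 5.13%) in replicate 1. Mir301b held 0.441% (0.412 to 0.471%) in replicate 2 and 0.602% (0.566 to 0.639%) in replicate 1. Together the mir-301 pair thus made up 3.57% of the family in replicate 2 and 5.63% in replicate 1. For each member the 2 libraries lay outside each other's counting interval, which leaves out the spread between pools.

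**Figure D2:**
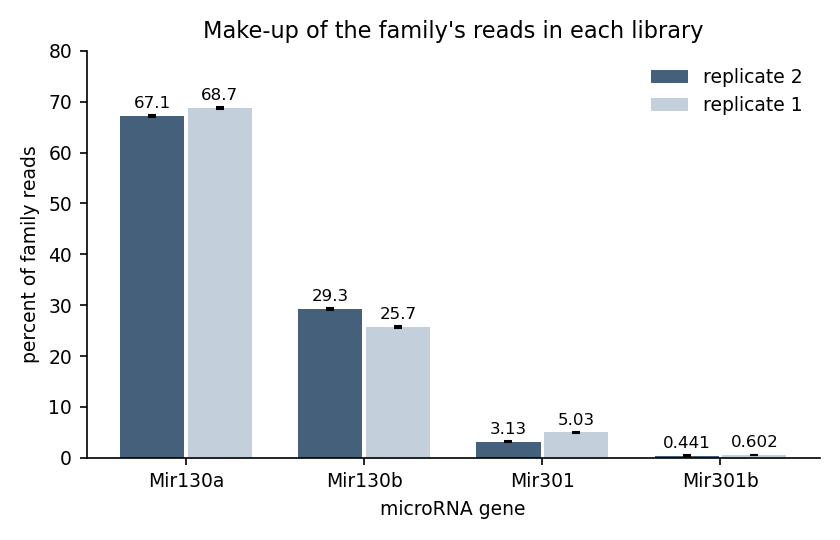
Percent of the family's reads that each member supplied in replicate 2 (dark bars) and replicate 1 (light bars), with 95% Wilson intervals of counting error. Mir130a and Mir130b supply nearly all of the family's reads in both libraries. The bars of Mir301 are 3.13% in replicate 2 and 5.03% in replicate 1.

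The neighbours Mir130b and Mir301b differed widely in reads although they lie in 1 intron on 1 strand. Mir130b exceeded Mir301b 66.5-fold in replicate 2 and 42.6-fold in replicate 1. Of the reads of this pair, Mir301b held 1.48% in replicate 2 (95% Wilson interval 1.38 to 1.58%) and 2.29% in replicate 1 (2.16 to 2.43%), or 1.89% ± 0.572 (SD, n = 2). Mir301, at a separate locus, exceeded Mir301b 7.11-fold in replicate 2 and 8.36-fold in replicate 1. The strand of the reads was clear for every member. No family read in replicate 2 and 3 in replicate 1, all 3 of Mir130a, fell in the count column read as the other strand.

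Between the pools the members differed in size and sign. Mir301 was lower in replicate 2, with a log2 ratio of −0.71 and a ratio of 0.610 (95% counting interval 0.590 to 0.630). Mir301b had a log2 ratio of −0.48 (ratio 0.717, counting interval 0.655 to 0.786). Mir130a was nearly level at −0.06 (ratio 0.957, 0.950 to 0.965) and Mir130b at 0.16 (ratio 1.12, 1.10 to 1.13). Mir301 was the 19th lowest ratio of 338 genes of mean CPM 10 or more and Mir301b the 45th lowest, while Mir130a and Mir130b were at places 155 and 230. The lower reads of both mir-301 genes in replicate 2 were thus counted at loci on separate chromosomes, and Mir301b did not share the sign of its neighbour Mir130b. The compared stretches of Mir301 and Mir301b differ at 1 of 22 bases, and the aligner is not given. Whether some reads counted for Mir301b came from Mir301 was not tested.

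A change of more than 1.5-fold was reached by 1 of the 4 members, Mir301, which was lower in replicate 2. Among all 338 genes of mean CPM 10 or more, 58 passed this fold in either direction (17.2%) and 28 were lower by it (8.28%), so 1 of 4 is not a result about the family. The median log2 ratio was −0.27 over the members and −0.03 over the 338 genes, whose SD was 0.57. The 107 genes at a mean of at least 1000 CPM had an SD of 0.42. With 1 library per pool these ratios have no replicate check, and no p-value is given.

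**Figure D3:**
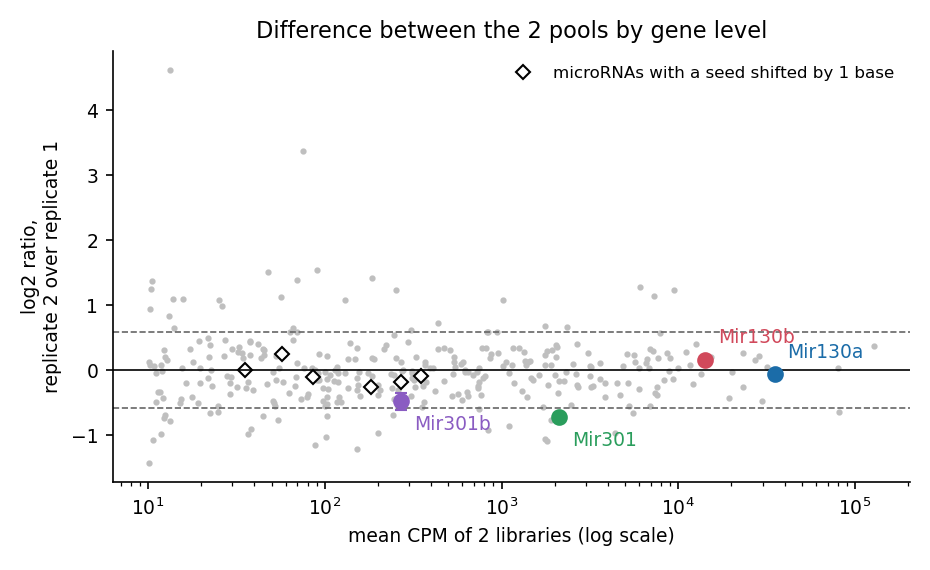
Log2 ratio of replicate 2 over replicate 1 against mean CPM (log axis) for the 338 genes of mean CPM 10 or more in grey, with the 4 members in colour, their 95% counting intervals as bars (mostly hidden by the points) and the genes of shifted seed as open diamonds. Dashed lines mark 1.5-fold, and Mir301 is the member beyond them.

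Markers of cell types were read beside these ratios because pools of dissected tissue can differ in make-up. Mir92b, known from neural progenitors, was at 25352 CPM in replicate 2 and 21246 in replicate 1. Of the 8 counted genes of a neural progenitor and brain list of 9, 5 reached a mean of 10 CPM, and Mir9-2, Mir124a-1 and Mir124a-3, genes of microRNAs with several copies in the genome, did not. Of these 5, Mir92b and Mir219a-2 were higher in replicate 2, and Mir9-3, Mir124a-2 and Mir135a-2 lower (log2 ratios −1.03, −0.78 and −0.09). Mir9-3 and Mir124a-2 are copies of the same microRNAs as Mir9-2, Mir124a-1 and Mir124a-3, so their reads too can be lost as multiply mapped. Mir124a-2 was at 9.78 CPM in replicate 2 and 17.0 CPM in replicate 1. The sum of the list, nearly all from Mir92b and Mir219a-2 (5580 CPM in replicate 2 and 4722 CPM in replicate 1), was 31197 CPM in replicate 2 and 26319 CPM in replicate 1. The neuron list (Mir137, Mir128-1 and Mir128-2) summed to 880 CPM in replicate 2 and 1526 CPM in replicate 1, with 2 of its 3 genes lower in replicate 2. Most of this sum was Mir137, at 782 CPM in replicate 2 and 1424 CPM in replicate 1. Mir128-2 was lower in replicate 2 and Mir128-1 nearly level (log2 ratios −0.51 and 0.04). Mir126a, the endothelial marker, had 30780 CPM in replicate 2 and 26449 CPM in replicate 1, below Mir130a in each library. The mesenchyme list, with 6 of 6 genes counted, summed to 13240 CPM in replicate 2 and 16222 CPM in replicate 1. The epithelium list, also 6 of 6, summed to 3426 CPM in replicate 2 and 2525 CPM in replicate 1. Of its genes, Mir200a was lower in replicate 2 (log2 ratio −0.50) and all others were higher. The erythroid list (3 of 3 counted) summed to 374 CPM in replicate 2 and 404 CPM in replicate 1, and the leukocyte list (3 of 4) to 1446 CPM in replicate 2 and 1270 CPM in replicate 1. Of the erythroid genes, Mir451a was lower in replicate 2, and Mir144 and Mir486 were higher (log2 ratios −0.26, 0.45 and 0.98). Of the 3 counted leukocyte genes, Mir155 and Mir223 were nearly level, slightly lower in replicate 2 (log2 ratios −0.015 and −0.009). Mir142b was higher (0.35). Muscle markers summed to 10.6 CPM in replicate 2 and 10.01 CPM in replicate 1 (4 of 5 counted, with Mir1a-1, Mir133a-1 and Mir133b at 0), and Mir122 of hepatocytes had 15.2 CPM in replicate 2 and 5.76 CPM in replicate 1. The neuron sum, mostly through Mir137, the mesenchyme sum, and the erythroid sum through Mir451a alone, were lower in replicate 2. So were 3 of the 5 neural progenitor and brain genes, Mir301 and Mir301b. The other list sums were higher in replicate 2, and the part of any of these in the ratios was not tested.

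Genes with the pattern most like each member were taken by the distance of log2 CPM over the 2 libraries, which is a weak measure with 2 points. Mir20a was nearest to Mir130a (distance 0.22), then Mir100 (0.47) and Mir126a (0.47). For Mir130b they were Mir322 (0.16), Mir106b (0.19) and Mir106a (0.31). Mir301 lay nearest to Mir153 (0.23), which had 1408 CPM in replicate 2 and 2403 CPM in replicate 1, then to Gm25252 (0.26) and Mir125a (0.37). The genes closest to Mir301b were Mir135a-1 (0.14), Mir7-1 (0.20) and Mir148b (0.21). All 3 had ratios below 1, which follows from choosing genes this close to Mir301b in both libraries.

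The family seed was also followed beyond the 4 members. RefSeq lists it in 4 further mouse microRNAs, miR-130c, miR-721, miR-6341 and miR-6389. Of their genes, Mir130c, Mir6341 and Mir6389 were counted and had no read in either library, which allows up to 0.815 CPM in replicate 2 and 0.910 CPM in replicate 1 (3 reads), and Mir721 is not among the counted genes. Mir130c, Mir6341 and Mir6389 were picked after the sequences were seen. Their sequences and that of miR-721 are shown because they carry the family seed, in capitals, and differ from the members downstream of it.
miR-130c: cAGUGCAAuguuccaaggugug
miR-721: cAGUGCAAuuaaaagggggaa
miR-6341: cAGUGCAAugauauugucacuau
miR-6389: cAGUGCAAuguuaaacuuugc

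Summed over its 7 counted genes, the seed AGUGCAA carried 51226 CPM in replicate 2 and 52455 CPM in replicate 1, all from the 4 members. Among 1205 seeds of RefSeq mature forms that occur in counted genes, it ranked 7 in both libraries. Only 916 counted genes had a mature form in the RefSeq sequences used. The form of Mir301b with the family seed was not among them, so Mir301b was entered by its hairpin. No other gene was entered in this way. A gene's reads were entered under the seed of each of its arms, because the counts do not separate arms, so the ranking counts most genes more than once. The first place went to AAAGUGC, the seed of Mir17 and its relatives, with 168535 CPM in replicate 2 and 162117 CPM in replicate 1. Next below the family came AUUGCAC, led by Mir92b, with 47884 CPM in replicate 2 and 38680 CPM in replicate 1. In this ranking the mir-130/mir-301 family was thus among the leading seeds, and its sum was above the next seed in each library.

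MicroRNAs whose seed is shifted by 1 base against that of the family pair with overlapping target sites. In miR-19 the family's bases 3 to 8 are followed by a further A, and in miR-148 and miR-152 its first 6 are preceded by a C; they are shown for comparison, with bases 2 to 8 in capitals.
miR-19a-3p: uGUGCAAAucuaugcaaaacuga
miR-19b-3p: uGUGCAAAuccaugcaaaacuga
miR-148a-3p: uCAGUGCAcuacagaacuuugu
miR-148b-3p: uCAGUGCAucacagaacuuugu
miR-152-3p: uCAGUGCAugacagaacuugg

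These relatives were scarce next to the family. The 6 counted genes of this list of 7, which also names Mir721, together held 0.0934% of the gene-assigned reads in replicate 2 and 0.102% in replicate 1, or 0.0979% ± 0.00635 (SD, n = 2). Mir148a was highest at 350 ± 16.5 CPM, above Mir148b at 268 ± 25.4 CPM and Mir152 at 85.9 ± 4.66 CPM (SD, n = 2 each). The mir-17-92 polycistron supplies Mir19a, at 182 ± 24.1 CPM, and Mir19b-1, at 57.5 ± 7.07 CPM, and its paralog on the X chromosome supplies Mir19b-2, at 35.5 ± 0.0684 CPM. The mature miR-19b-3p is identical at 2 loci, whose precursors share a run of 25 bases, so that its reads can be lost as multiply mapped and these 2 levels may be too low. Mir301b, the scarcest family member, overlapped Mir148b in range. Between the pools, 0 of these 6 genes passed 1.5-fold and their median log2 ratio was −0.10, with values from −0.27 for Mir19a to 0.26 for Mir19b-1. Among all genes of mean CPM 10 or more, 58 of 338 passed it (17.2%), so 0 of 6 is not a result about these genes.

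**Figure D4:**
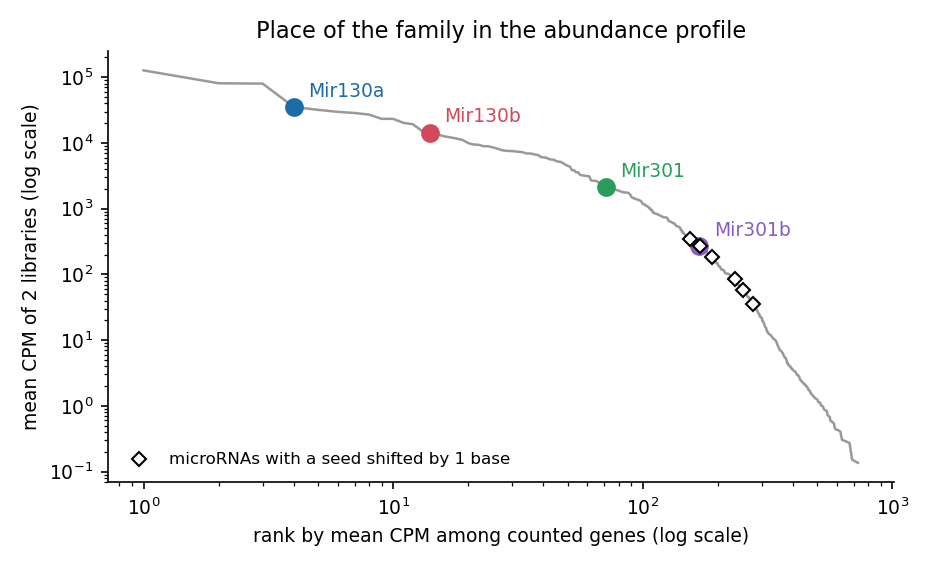
Mean CPM of the 2 libraries against rank among the counted genes, both on log axes, with the family members as coloured points and the 6 counted genes of shifted seed as open diamonds. Mir130a, Mir130b and Mir301 stand at ranks 4, 14 and 71 of the mean, and all diamonds lie at rank 155 or beyond, around and below Mir301b at rank 168.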

How the data were processed

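Small RNA of E10.5 midbrain was measured in 2 libraries of 1 group. The deposited values are raw read counts per microRNA gene, made by the authors on mm10 and GENCODE M4 (per the deposited descriptions), with aligner and trimming not given in the sources used here. Besides 1973 gene rows, 4 rows name no gene and hold 60.9% of all reads in replicate 2 and 57.8% in replicate 1. They were left out of library sizes. The first count column, the sum of both strand columns, was used. The strand column with 97.3% of gene-assigned reads in replicate 2 and 97.4% in replicate 1 was read as sense.

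Identifiers were matched without version to GENCODE M21 (GRCm38, the same build), for 1894 genes. Members, gene lists and the fold of 1.5 were chosen with earlier results of these data known. CPM, intervals and log2 ratios (0.5 added reads, TMM sizes) were computed in Python 3.11.15 with statsmodels 0.14.6 and edgeR 4.0.16. Alternatives were DESeq2 1.42.0 size factors, other denominators, filters and added reads, the sense column, thinning and leaving out a replicate. With 1 group, no test between conditions was run. Named genes are the members, the shifted-seed list, 2 genes above and 2 below each member in rank, the 3 nearest in log2 CPM, and microRNA genes within 50 kb. The computation of the ratio was tested on simulated counts with known folds and counting error only, so spread between pools was not part of that check. RefSeq sequences (GRCm38.p6) were matched by symbol, with a hairpin for 4 of 4 members.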

Additional observations from a re-analysis of the deposited data

How the results depend on the processing

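The family share of 5.18% was 2.11% over all reads of the library, 5.33% from the first strand column, 5.94% without Mir335 in the denominator, 5.71% without genes that share 20 bases with another locus, and 1.66% without Mir130a. With either replicate left out it was 5.12 to 5.25%. With 2 replicates, leaving 1 out cannot move a mean by more than the SD, so such values say nothing of stability. The family log2 ratio of −0.03 was −0.040 after thinning the deeper library and changed sign to 0.0051 with DESeq2 size factors and 0.041 without Mir130a. The effect of leaving out Mir130a was examined after the data were seen, as were the alternatives for shares within the family. The number of genes past 1.5-fold, 58 of 338, was 198 of 621 with at least 1 read in each library, 27 of 222 at mean CPM 100 or more, and 25 of 338 past 2-fold. Among the settings tried, Mir301 had log2 ratios of −0.72 to −0.68 and stayed past 1.5-fold, Mir301b −0.49 to −0.44, Mir130a −0.07 to −0.03 and Mir130b 0.15 to 0.20. Over all reads of the library the levels were 14327, 5775, 870 and 111 reads per 1000000 for Mir130a, Mir130b, Mir301 and Mir301b. Of 52 alternative values other than those that leave out a replicate, 35 stayed within the spread between replicates, the counting interval or, for counts of genes, 1.5 times the main count. Of the rest, 15 moved and 2 changed sign. Some alternatives, such as added reads, could hardly move members with this many reads, so this tally is no measure of stability. Apart from values set by the construction of an alternative, the cause of a shift was not tested. A ratio between libraries cannot be had without either replicate. No paired analysis was possible because there is 1 group. The depth limits a gene with no read to 0.815 CPM in replicate 2 and 0.910 CPM in replicate 1.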
